A study of Mus musculus with 4 samples.

Results

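The genes described here are 8 integrin subunits of muscle cells: the alpha subunits Itga3, Itga5, Itga6, Itga7 and Itgav and the beta subunits Itgb1, Itgb3 and Itgb5. They were chosen by name, and every non-control array probe that the scanner annotation assigns to 1 of these symbols was taken. This gave 21 probes of 41174 on the array, and 8 genes of 27347 genes and unnamed probes. Of the 21 probes, 18 were bright enough to be tested, among 26985 tested probes. Each of the 18 was well above background with follistatin and without, on all 4 arrays. The 3 others, all named Itgav, were dim, with signals between 3.70 and 34.2, and they are described with that gene.

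The samples were cultures of C2C12, an established line of mouse myoblasts whose cells fuse into multinucleated myotubes once serum is reduced. In the follistatin group, human recombinant follistatin was added at 200 ng/ml each 24 h, and the untreated group received none. All cultures were grown in 10% fetal serum to 80% confluence and differentiated for 6 days, in horse serum that the growth protocol puts at 2% and the source names at 10%. Each of 4 arrays carried follistatin RNA labelled with Cy3 and untreated RNA labelled with Cy5, and the 4 are biological replicates, all per the labels. Every array is also described there as a dye swap, a term the submitters define as the treated sample in Cy3 with its control in Cy5, so the sign of every ratio rests on that definition and no array was turned round. Follistatin is a secreted protein that binds activins and myostatin. Because no array had the opposite dye orientation, a probe's own dye difference and the effect of follistatin cannot be told apart.

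Integrins are receptors made of 1 alpha and 1 beta subunit that span the membrane and join the extracellular matrix to the actin cytoskeleton. In muscle, alpha 7 beta 1 is the main laminin-binding integrin of fibres and anchors them at the myotendinous junction. The alpha 5 subunit pairs with beta 1 as a fibronectin receptor, and alpha v pairs with beta 1, beta 3 or beta 5 to bind vitronectin, fibronectin and other ligands that carry an arginine, glycine and aspartate motif. Muscle precursors carry alpha 5, alpha v and the laminin-binding alpha 3 and alpha 6 subunits, and striated muscle makes a splice form of beta 1 named beta 1D.

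The ratios of replicates 2 and 3 resembled each other more than any other pair did. Over all tested probes, which are not independent replicates, they correlated at r = 0.82 (Spearman's coefficient 0.81), against 0.038 to 0.32 (Spearman's 0.033 to 0.35) for the other 5 pairs. Replicates 1, 2 and 3 were on slide 1 and replicate 4 on slide 2. Between 61.1% and 65.2% of the follistatin signals and between 61.4% and 69.4% of the untreated signals of an array were well above background, and 0 spots were saturated. All 10 skeletal muscle markers were well above background in both channels on every array. Of 15 markers of other lineages, 6 were above background on no array, among them Pecam1 of endothelium, Ptprc of leukocytes and Epcam of epithelium. Other markers of the same lineages were bright enough to be tested: Tek of endothelium, Cd68 of leukocytes, and Krt5, Krt8 and Krt18 of epithelium. Their signals and those of Gfap, also tested, lay between 18.3 and 165. The summed signal of the 15 was 96912 to 166030 in follistatin channels and 82798 to 118550 in untreated channels. Most of it was Dcn, the proteoglycan decorin, with 93547 to 162450 in follistatin channels and 78516 to 113700 in untreated channels. Tubb3 and Pdgfra were also detected. Whether the signals of these markers came from the C2C12 cells themselves or from other cells was not tested. Nor was any part of other cells in the integrin ratios.

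Several subunits were read by more than 1 probe, and the sequences of 4 probes show which stretch of a transcript a value belongs to. They are given as the array annotation lists them, each 5′ to 3′, with mm9 positions, and were chosen because they lie in the protein-coding part of their transcript. For beta 1, 1 probe reads a stretch used by all beta 1 forms and another starts in the end of the reading frame that only beta 1D has. The beta 1D probe is shown for its first 27 of 60 bases, with the stop codon (bases 25 to 27) in capitals, and the remaining 33 bases lie behind the stop. The Itga7 and Itga3 probes are set beside probes nearer the transcript's end.
Itgb1, A_52_P351816, chr8:131246349-131246408, plus strand: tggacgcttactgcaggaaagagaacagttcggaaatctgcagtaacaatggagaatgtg
Itgb1 beta 1D, A_52_P69236, chr8:131250931-131255949, plus strand: aactatggacgtaaagctggtctcTGA
Itga7, A_52_P413034, chr10:128390852-128390911, plus strand: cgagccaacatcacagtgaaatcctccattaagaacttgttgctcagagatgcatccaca
Itga3, A_51_P230405, chr11:94915485-94917062, minus strand: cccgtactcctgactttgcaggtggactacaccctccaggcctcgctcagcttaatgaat
The beta 1D probe spans 5019 bases of the genome and the Itga3 probe 1578 bases, so both cross an intron.

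The main comparison asks whether integrin transcripts differed in level between follistatin-treated and untreated cultures. Values are log2 ratios of the processed follistatin signal over the processed untreated signal, so that positive means higher with follistatin. Of the 18 probes, 12 had a positive mean and 6 a negative one. Means were positive for all probes of Itgb1, Itga3 and Itga7 and for the only probe of Itga5. They were also positive for the brightest probes of Itga6 and Itgav and for Itgav A_51_P498205. The sign was mixed over arrays for both Itga7 probes and for the coding Itga3 probe. Itgb5 and 1 probe each of Itgb3, Itga6 and Itgav were lower with follistatin on all 4 arrays. None of the 18 passed the threshold, an adjusted p of 0.05 in limma over all tested probes. The smallest adjusted p of an integrin probe was 0.101, and 2 of all 26985 probes (0.00741%) passed.

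Without adjustment, 8 of the 18 were at p under 0.05 with a positive mean, where 9.93% of all probes were, and 3 of the 18 were with a negative mean, where 10.8% of all probes were. The signal was higher with follistatin on all 4 arrays for 9 of the 18 integrin probes, against 13.7% of all probes, and lower on all 4 for 4 of the 18, against 14.5%. The median of the 18 mean log2 ratios was 0.44, and that of all tested probes was 0.014. Probes of the same gene share a transcript, so these counts are not of independent features. With the brightest probe standing for each gene, 6 of 8 genes had a positive mean and 2 a negative one. Of these 8, 4 genes were at an unadjusted p under 0.05 with a positive mean, against 8.61% of 17799 genes and unnamed probes, and 0 with a negative mean, against 10.8%. Itgb5 lay just past that limit, with an unadjusted limma p of 0.051. When limma was fitted to 1 probe per gene alone, the counts were 4 and 1, against 3674 of the 17799 in either direction. These 17799 are called all genes below.

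These counts moved with single arrays. Without replicate 1, 4 integrin probes with a positive and 4 with a negative mean were at an unadjusted p under 0.05, against 20.1% of all probes in either direction. These were 4 and 3 without replicate 2 (11.7% of all probes), 3 and 3 without replicate 3 (9.52%), and 7 and 3 without replicate 4 (28.3%). Over all probes the count was 5599 with all arrays and 5420 without replicate 1. It was thus nearly unchanged there, while the integrin probes with a positive mean went from 8 to 4. Without replicate 4 the count over all probes rose to 7650. The median of the 18 was 0.19 without replicate 1. The plot of ratios by probe shows both the spread within a probe and the split between probes of a gene.

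**Figure D1:**
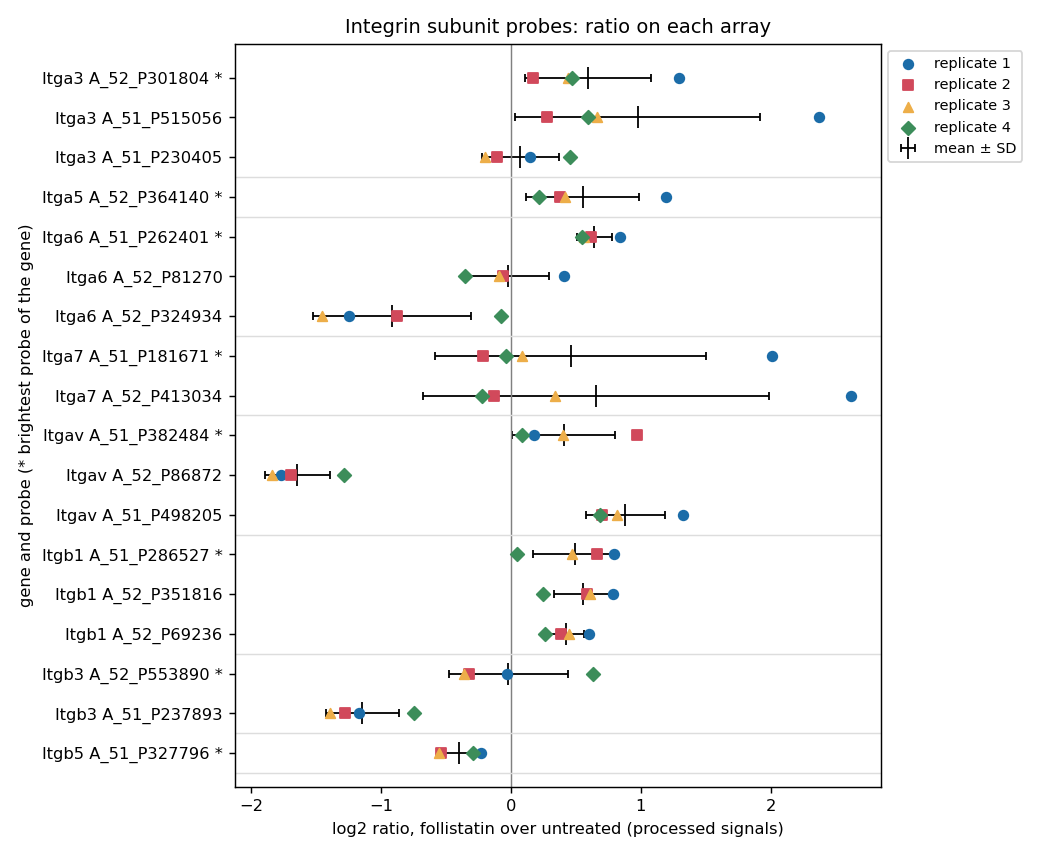
Log2 ratio of follistatin over untreated processed signal (horizontal axis) for each of the 18 tested integrin probes (vertical axis, grouped by gene, the brightest probe starred), with 1 point per array and the mean and SD over 4 arrays in black. Replicate 1 lies far to the right for both Itga7 probes (2.01 and 2.62), while the 3 Itgb1 probes lie to the right of 0 on every array and Itgb5 to the left on every array.

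Beta 1 can pair with each of the 5 alpha subunits named above, and its 3 probes gave similar ratios. The brightest probe, A_51_P286527 (chr8:131256492-131256551, mm9), had processed signals of 10853, 12540, 11356 and 12486 in follistatin channels of replicates 1 to 4. The untreated channels had 6261, 7944, 8185 and 12068. Follistatin was higher on each array, but the groups overlap, because the untreated signal of replicate 4 lay within the follistatin range. The log2 ratio averaged 0.49 ± 0.32 (SD, n = 4; limma SE 0.19, adjusted p = 0.220), and 0.39 without replicate 1. This probe was printed 10 times per array, and the SD of the ratio between its spots was 0.025 to 0.034, far under the SD between arrays.

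The coding probe A_52_P351816, shown above, had 1976, 2654, 2737 and 2460 with follistatin and 1145, 1767, 1795 and 2072 in untreated channels. Again each array had the higher signal with follistatin, and the lowest follistatin signal lay within the untreated range. Its mean log2 ratio was 0.56 ± 0.23 (SD, n = 4; limma SE 0.18, adjusted p = 0.164).

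The beta 1D probe, whose first bases encode the muscle-specific tail, had 1025, 1272, 1353 and 1365 with follistatin and 677, 973, 991 and 1137 in untreated channels. It was higher with follistatin on each array, with overlapping groups. This gave a mean log2 ratio of 0.42 ± 0.14 (SD, n = 4; limma SE 0.17, adjusted p = 0.220). On each array it was set against the brightest beta 1 probe to ask whether the splice form moved apart from beta 1 as a whole. The difference in log2 ratio, beta 1D probe minus brightest probe, was -0.069 ± 0.22 (SD, n = 4), negative on 3 of 4 arrays, with an exact sign-flip permutation p of 0.5 (two-sided, the smallest possible being 0.125). The bases of this probe behind the stop could also match other beta 1 forms, and this was not tested.

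Among laminin-binding alpha subunits, compared by the brightest probe of each, Itga6 had the ratio least spread over arrays. Its brightest probe, A_51_P262401 (chr2:71695973-71696031), is annotated to an Ensembl transcript. It had 11592, 13407, 13426 and 12728 with follistatin and 6477, 8761, 9087 and 8717 in untreated channels. The groups did not overlap, and the lowest follistatin signal was above the highest untreated one. The mean log2 ratio was 0.64 ± 0.14 (SD, n = 4), a 1.56-fold higher signal, with an SE of 0.17 and an adjusted p of 0.129 in limma. Without replicate 1 the mean was 0.57.

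The other Itga6 probes did not follow it, and the first of them is annotated to a RefSeq transcript. A_52_P81270 (chr2:71694194-71694253) had 2719, 2256, 2407 and 3644 with follistatin and 2047, 2350, 2567 and 4663 in untreated channels, overlapping groups with a mean log2 ratio of -0.024 ± 0.32 (SD, n = 4; limma adjusted p = 0.953). A_52_P324934 (chr2:71692909-71692968), annotated to a separate Ensembl transcript, had 143, 177, 107.2 and 226 with follistatin and 340, 326, 293 and 239 in untreated channels. That probe was lower with follistatin on all 4 arrays, its groups did not overlap, and its mean was -0.91 ± 0.61 (SD, n = 4; limma SE 0.26, adjusted p = 0.143). Set against the brightest Itga6 probe, the first differed by -0.67 ± 0.19 and the second by -1.55 ± 0.67 on the log2 scale (SD, n = 4), both negative on 4 of 4 arrays. Each had an exact sign-flip permutation p of 0.125, the smallest that 4 arrays allow, and an adjusted p of 0.208 over the 10 such comparisons of an integrin probe with the brightest of its gene.

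For Itga3, a laminin-binding subunit that pairs with beta 1, the 2 probes at the 3′ side were higher with follistatin on all 4 arrays and the coding probe was not. A_52_P301804 (chr11:94905987-94906046) had 1181, 1044, 1304 and 1333 with follistatin and 481, 926, 960 and 960 in untreated channels. The groups did not overlap, and the untreated signal of replicate 1 lay far under the other 3. Over the arrays the log2 ratio averaged 0.60 ± 0.49 (SD, n = 4; limma SE 0.23, adjusted p = 0.214), and 0.36 without replicate 1.

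A_51_P515056 (chr11:94906314-94906373) showed the same layout, with 569, 400, 541 and 508 in follistatin channels and 110, 331, 342 and 337 in untreated channels. On replicate 1 its follistatin signal was 5.17-fold higher, and its mean log2 ratio was 0.98 ± 0.94 (SD, n = 4; limma SE 0.36, adjusted p = 0.200), and 0.51 without replicate 1. The coding probe, shown above, had 220, 209, 238 and 229 with follistatin and 199, 225, 274 and 167 in untreated channels. Its signs were mixed over arrays, with a mean log2 ratio of 0.074 ± 0.29 (SD, n = 4; limma adjusted p = 0.842). It differed from the brightest Itga3 probe by -0.52 ± 0.49 on the log2 scale (SD, n = 4; negative on 4 of 4 arrays, exact sign-flip permutation p = 0.125).

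Itga7, the alpha subunit most closely tied to differentiated muscle, had a ratio far from 0 on replicate 1 alone. A_51_P181671 (chr10:128394990-128395048) had 31566, 19126, 23566 and 21380 with follistatin and 7846, 22229, 22216 and 21998 in untreated channels. The untreated signals of replicates 2, 3 and 4 lay between 21998 and 22229, and replicate 1 stood apart, with a follistatin signal 4.02-fold the untreated one. The mean log2 ratio was 0.46 ± 1.04 (SD, n = 4; limma adjusted p = 0.516), and -0.058 without replicate 1.

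The coding probe of Itga7, shown above, gave the same picture from another stretch of the transcript. It had 22305, 10824, 15941 and 11223 with follistatin and 3632, 11828, 12590 and 13058 in untreated channels, a 6.14-fold higher follistatin signal on replicate 1. Its mean log2 ratio was 0.65 ± 1.33 (SD, n = 4; limma adjusted p = 0.456), and -0.0020 without replicate 1. The 2 Itga7 probes differed by 0.19 ± 0.33 on the log2 scale (SD, n = 4; coding minus brightest, positive on 3 of 4 arrays, exact sign-flip permutation p = 0.375).

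Most skeletal muscle markers were also higher with follistatin on replicate 1 than on the other arrays. On replicate 1 their median log2 ratio was 0.75 and 7 of 10 were positive, while on replicates 2, 3 and 4 the medians were -0.59, -0.84 and -0.48 and 2, 0 and 2 of 10 were positive. Des, the intermediate filament desmin, had a log2 ratio of 1.75 on replicate 1, against -0.039, -0.35 and -0.87 on the other arrays. Ckm, the muscle creatine kinase, had 1.05 on replicate 1, while Tnnc2, Myl1 and Myog had -0.77, -0.26 and -0.12 there. The summed marker signal on replicates 1 to 4 was 1471900, 1205100, 908160 and 1277600 with follistatin. In untreated channels it was 1600700, 1930300, 1789900 and 1659600. Tnnc2 and Myl1 had the largest untreated signals of the 10 on replicate 1, 715980 and 414260, and both were lower with follistatin there. In the untreated channel of replicate 1, Des, Ckm, Acta1, Myh3, Tnnt3, Mymk and Myod1 were at their lowest of the 4 arrays. Tnnc2, Myl1 and Myog were not. The part of differentiation state in the Itga7 ratio was not tested, and in a bulk culture fewer cells of a type and less RNA per cell cannot be told apart.

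**Figure D2:**
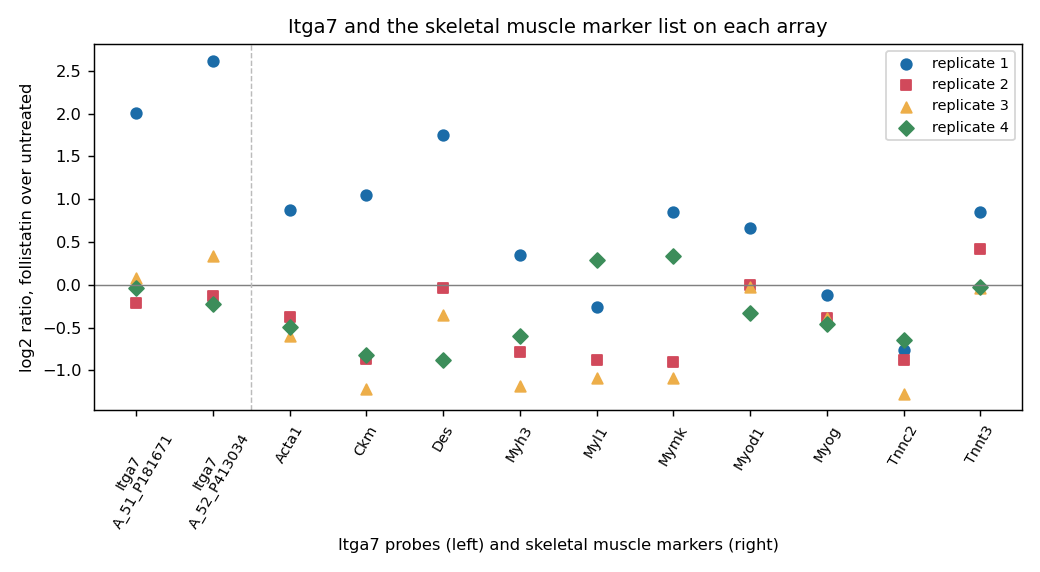
Log2 ratio of follistatin over untreated signal (vertical axis) on each of the 4 arrays, for both Itga7 probes on the left and the 10 skeletal muscle markers on the right. Replicate 1 (circles) is the highest point for both Itga7 probes and for 7 of the 10 markers it is above 0, with Des at 1.75.

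Itga5, the alpha subunit of the fibronectin receptor, had 1 probe, A_52_P364140 (chr15:103175022-103175081). It had 1958, 1893, 1913 and 1815 with follistatin and 855, 1457, 1436 and 1562 in untreated channels. The follistatin signals were nearly equal on all arrays and lay above every untreated signal. The mean log2 ratio was 0.55 ± 0.44 (SD, n = 4; limma SE 0.22, adjusted p = 0.223), and 0.34 without replicate 1, whose untreated signal was the lowest.

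Itgav, the alpha subunit of vitronectin receptors, had the most probes and the widest disagreement between them. The brightest, A_51_P382484 (chr2:83646133-83646192), had 3721, 7518, 4952 and 4357 with follistatin and 3286, 3843, 3759 and 4114 in untreated channels. It was higher with follistatin on each array, the groups overlapped, and replicate 2 was the highest. The mean log2 ratio was 0.41 ± 0.40 (SD, n = 4; limma SE 0.21, adjusted p = 0.310), and 0.22 without replicate 2.

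A_51_P498205 (chr2:83643711-83643770), a dimmer probe of the same RefSeq transcript, had 116, 98.0, 125 and 114 with follistatin and 46.2, 60.3, 71.1 and 71.0 in untreated channels. Its groups did not overlap, and its mean log2 ratio was 0.88 ± 0.30 (SD, n = 4; limma SE 0.19, adjusted p = 0.109). A_52_P86872 (chr2:83581760-83581819) is annotated to a cDNA clone from activated spleen whose product is given as unclassifiable. It had 160, 91.9, 77.3 and 110 with follistatin and 546, 297, 277 and 266 in untreated channels. Here every follistatin signal was under every untreated one, and the mean log2 ratio of -1.65 ± 0.25 (SD, n = 4; limma SE 0.18, adjusted p = 0.101) was the largest in size of the 18 from processed signals. Under normexp and loess it was -0.76, smaller in size than the -0.91 of the dimmer Itgb3 probe.

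That clone probe differed from the brightest Itgav probe by -2.05 ± 0.55 on the log2 scale (SD, n = 4), negative on 4 of 4 arrays, with an exact sign-flip permutation p of 0.125. Both lie on the same strand, the clone probe upstream of the brightest one, and no exon annotation of that build was used here. The 3 dim Itgav probes were not well above background in the follistatin channel on any array. A_52_P102916 was well above background in the untreated channel on 2 arrays, and the other 2 on none, so they give no ratio here.

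Itgb3, a beta partner of alpha v, had 2 probes that disagreed. The brightest, A_52_P553890 (chr11:104531672-104531731), had 1256, 1241, 1391 and 1881 with follistatin and 1282, 1551, 1784 and 1216 in untreated channels. The sign was mixed, with replicate 4 positive and the others negative, and the mean log2 ratio was -0.020 ± 0.46 (SD, n = 4; limma adjusted p = 0.966). A_51_P237893 (chr11:104528490-104528560) had 565, 460, 355 and 307 with follistatin and 1271, 1112, 930 and 515 in untreated channels. It was lower with follistatin on each array, though the groups overlapped, and its mean was -1.14 ± 0.28 (SD, n = 4; limma SE 0.19, adjusted p = 0.101). The difference between the probes was -1.12 ± 0.18 on the log2 scale (SD, n = 4), negative on 4 of 4 arrays, with an exact sign-flip permutation p of 0.125.

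Itgb5, which pairs with alpha v alone, was the only gene whose brightest probe was lower with follistatin on all 4 arrays. Its single probe, A_51_P327796 (chr16:33949123-33949182), had 74335, 66161, 58855 and 71261 with follistatin and 86947, 95799, 86532 and 87069 in untreated channels. Every follistatin signal was under every untreated one. The mean log2 ratio was -0.40 ± 0.17 (SD, n = 4), a 1.32-fold lower signal with follistatin, with an SE of 0.17 and an adjusted p of 0.243 in limma.

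Ordered by the mean log2 ratio of the brightest probe, the genes ran from Itga6, Itga3, Itga5, Itgb1, Itga7 and Itgav, all between 0.41 and 0.64, to Itgb3 at -0.020 and Itgb5 at -0.40. Neighbours among the first 6 differed by less than the SD of either. Signals of different probes depend on the probe as well as on the transcript, so the levels of the 8 genes were not ranked. The plot of signals by channel shows that the ratios of Itga3, Itga5, Itga6, Itga7 and Itgb1 were widest on replicate 1. There the untreated signal of each was the lowest of the 4 arrays.

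**Figure D3:**
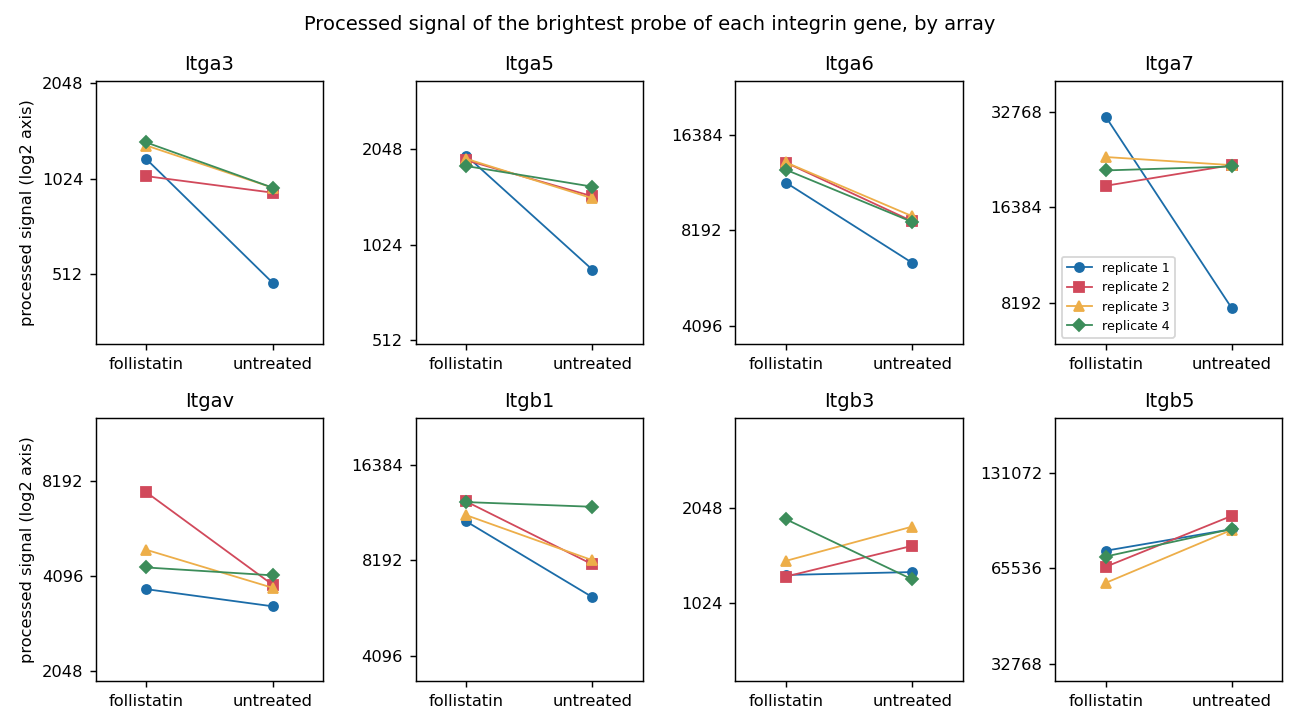
Processed signal (log2 axis, same span in every panel) of the brightest probe of each of the 8 genes in the follistatin and untreated channels, with 1 line per array. The lines for Itga6 slope down to the untreated channel on every array (follistatin 11592 to 13426, untreated 6477 to 9087), those for Itgb5 slope up, and for Itga7 only replicate 1 departs from a nearly level line.

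Replicate 4, the only array on slide 2, differed from the mean of slide 1 for some genes. Slide, replicate and the scanner software version of that array cannot be told apart here. On slide 1 alone (3 arrays) the mean log2 ratio was 0.64 for Itgb1, 0.67 for Itga6, 0.66 for Itga5 and 0.64 for Itga3, by the brightest probe. On slide 2 (1 array, replicate 4) these were 0.049, 0.55, 0.22 and 0.47. Itgb3 was -0.24 on slide 1 and 0.63 on slide 2, Itgb5 was -0.44 and -0.29, Itgav was 0.52 and 0.083, and Itga7 was 0.63 and -0.041. The slide 1 mean of Itga7 held 2.01 on replicate 1, against -0.22 and 0.085 on replicates 2 and 3. With slide as a random block, 0 of 18 integrin probes passed the adjusted threshold in limma, and 6 were at an unadjusted p under 0.05 in either direction, against 15.6% of all probes.

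One alternative ended in calls. When limma estimated a weight per array from the data, 9 of 18 integrin probes passed the adjusted threshold, against 29.4% of all probes: those of Itgb5, the dimmer Itgb3 probe, all 3 tested Itgav probes, 2 of 3 Itgb1 probes and 2 of 3 Itga6 probes. The estimated weights were 2.54 and 1.89 for replicates 2 and 3, the pair whose ratios resemble each other, and 0.48 and 0.43 for replicates 1 and 4. When replicates 2 and 3 were averaged into 1 value, the smallest adjusted p of an integrin probe was 0.268.

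The sizes of the ratios also depended on how background was handled, mainly for dim probes. Under normexp background correction with loess normalization, which pulls the ratios of faint spots towards 0, the Itgav clone probe had a mean log2 ratio of -0.76 in place of -1.65. The dim Itgav probe A_51_P498205 had 0.26 in place of 0.88, and the Itga6 probe A_52_P324934 had -0.45 in place of -0.91. The brightest probes moved less, with 0.60 for Itga6, 0.49 for Itgb1, -0.42 for Itgb5 and 0.37 in place of 0.46 for Itga7. The coding Itgb1 probe had 0.42 in place of 0.56. All 18 means kept their sign under that processing, and 0 of 18 passed.

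**Figure D4:**
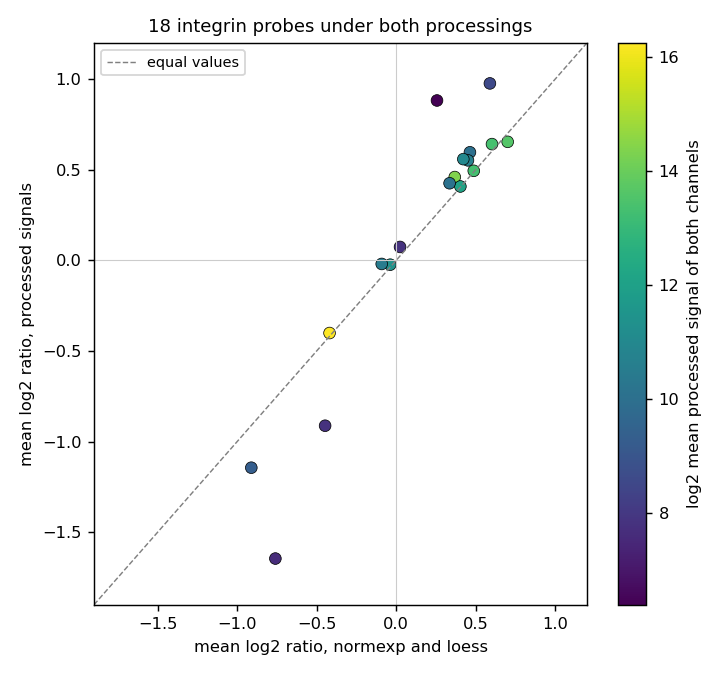
Mean log2 ratio of each of the 18 integrin probes over 4 arrays from processed signals (vertical axis) against that after normexp and loess (horizontal axis), coloured by the log2 of the mean signal of both channels. Bright probes lie near the dashed line of equal values, and the points farthest from it are dim probes whose processed ratios are larger in size.

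Across all tested probes the mean log2 ratio was more spread among dim probes, with an SD of 0.60 in the dimmest of 4 equal classes (mean signal up to 114) and 0.39 in the brightest. The brightest probes of Itga6 and Itgb5 lay within the span from 5% to 95% of all tested probes, -0.95 to 0.74. The Itgav clone probe and the dimmer Itgb3 probe lay under it, and Itga3 A_51_P515056 and Itgav A_51_P498205 above it. Some of these placements changed with the span of the probe's own brightness class. In the brightest class, -0.69 to 0.59, the brightest Itga6 probe at 0.64 and the coding Itga7 probe at 0.65 lay above the span. Itgav A_51_P498205 at 0.88 lay inside that of the dimmest class, -1.09 to 0.905.

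Matrix ligands of integrins in general had the highest median among the 5 lists of related genes. Of 27 integrin ligands of the matrix, 25 were tested by their brightest probe, 21 had a positive mean and 4 a negative one, and 9 were at an unadjusted p under 0.05 with a positive mean, against 8.61% of all genes, while 0 passed adjustment. Their median log2 ratio was 0.39, against -0.018 for all genes. Lama2, the laminin alpha 2 chain bound by alpha 7 beta 1, had 6396, 7593, 12739 and 6760 with follistatin and 2709, 3037, 3373 and 3731 in untreated channels. Its mean log2 ratio was 1.33 ± 0.44 (SD, n = 4; limma SE 0.22, adjusted p = 0.101), and every follistatin signal was above every untreated one.

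The laminin gamma 1 chain, Lamc1, had a mean log2 ratio of 0.87 ± 0.24 (SD, n = 4; limma adjusted p = 0.107). Fn1, fibronectin, the ligand of alpha 5 beta 1, had 1.13 ± 0.73 (SD, n = 4; limma SE 0.29, adjusted p = 0.129) by its brightest probe. The 3 tested Fn1 probes ranged from -0.38 to 1.17.

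The other integrin subunits had a median log2 ratio of 0.082, with 9 positive and 5 negative means among 14 tested of 19 listed. Of these 14, 0 were at an unadjusted p under 0.05 with a positive mean and 1 with a negative mean, against 8.61% and 10.8% of all genes, and 0 passed adjustment. Itga1, a collagen-binding subunit, was that gene, with 311, 127, 37.6 and 213 in follistatin channels and 897, 272, 80.1 and 338 in untreated channels. It was lower with follistatin on each array, with a mean log2 ratio of -1.09 ± 0.35 (SD, n = 4; limma SE 0.20, adjusted p = 0.102). Itga4, which binds Vcam1 and fibronectin, had 0.53 by its brightest probe, but its 3 probes ranged from -1.26 to 0.80. Itga8 had 0.45 (limma adjusted p = 0.278). Under normexp and loess these dim probes had -0.61 for Itga1, 0.21 for Itga4 and 0.10 for Itga8.

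Inside the cell, integrin tails bind talin and kindlin, which activate the receptor, and integrin-linked kinase, which joins it to parvins and actin. Of 30 adaptors and actin linkers, 28 were tested, with 19 positive and 9 negative means and a median log2 ratio of 0.17. At an unadjusted p under 0.05 there were 5 with a positive mean, against 8.61% of all genes, and 2 with a negative mean, against 10.8%, and 0 passed adjustment. Parvb, beta-parvin, had a mean of 0.73 ± 0.24 (SD, n = 4; limma adjusted p = 0.121) by its brighter probe and 0.12 by the other. Actn1 and Actn4, alpha-actinins that link integrins to actin, had 0.63 and 0.67, each with an adjusted p of 0.137.

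Talin 1, integrin-linked kinase and kindlin 2 were also followed as named partners of the receptor. Tln1, talin 1, had 0.75 on replicate 1 and -0.17, -0.086 and -0.42 on the other arrays, a mean of 0.019 ± 0.51 (SD, n = 4; limma adjusted p = 0.971), while its 3 probes ranged from 0.019 to 0.99. Ilk had 1.21 on replicate 1 and 0.065 to 0.24 on the others (limma adjusted p = 0.331), and so was highest on replicate 1, as were the brightest probes of Itga3, Itga5, Itga6, Itga7 and Itgb1. Fermt2, kindlin 2, had a mean of -0.38 ± 0.64 (SD, n = 4; limma adjusted p = 0.442).

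Of 25 kinases, GTPases and exchange factors that act downstream, all 25 were tested, with 20 positive and 5 negative means and a median log2 ratio of 0.24. Of the 25, 6 were at an unadjusted p under 0.05 with a positive mean and 2 with a negative mean, where 8.61% and 10.8% of all genes were, and 0 passed adjustment. Git2 had 0.70 (its 4 probes ranged from -0.51 to 0.76), the Src-family kinase Yes1 had 0.75, and the kinase Rock1 had -0.78, with adjusted p-values of 0.136, 0.142 and 0.194. Ptk2, the focal adhesion kinase, had -0.14 ± 0.55 (SD, n = 4; limma adjusted p = 0.762). Of 15 membrane partners, 14 were tested, with a median of 0.033, and 1 of them, Plaur, the urokinase receptor, was at an unadjusted p under 0.05 with a positive mean (log2 ratio 0.47, limma adjusted p = 0.235), a share near the 8.61% of all genes.

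**Figure D5:**
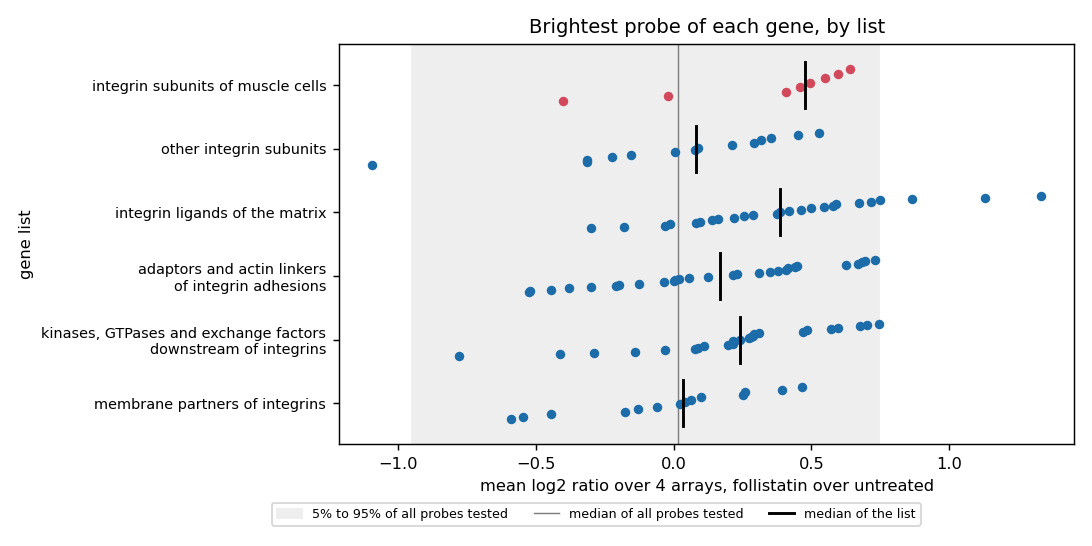
Mean log2 ratio over 4 arrays of the brightest probe of each gene (horizontal axis) in the 8 integrin subunits (top row) and 5 lists of related genes, with each list's median as a black bar, the median of all tested probes as a thin line and the span from 5% to 95% of all tested probes shaded. The medians are 0.48 for the 8 subunits, 0.082 for other subunits, 0.39 for matrix ligands, 0.17 for adaptors, 0.24 for downstream signalling genes and 0.033 for membrane partners.

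The gene nearest to each subunit was found by the mean absolute difference of the 4 log2 ratios, among 22761 named probes of other genes. Cited2 was nearest to Itga3 (0.051), Tmem62 to Itga5 (0.041), Nr2c2ap to Itga6 (0.059) and Acads to Itga7 (0.085). Serpinb7 was nearest to Itgav (0.047), Thsd7a to Itgb1 (0.012), Trappc2l to Itgb3 (0.027) and Zbtb4 to Itgb5 (0.0088). For Itga7, the nearest gene had 1.81 on replicate 1 and -0.27, 0.16 and -0.062 on the others, so even the best match out of 22761 was farther off than for any other subunit.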

How the data were processed

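The members and gene lists were chosen with earlier results of these data known. The authors read spot intensity with Agilent Feature Extraction: the submitters' processing notes give version 10.7.3.1, and the file headers give 10.10.1.1 for replicate 4. The deposited processed intensity values are background-subtracted and dye-normalized by that software. The authors' deposited log2 table equals the log2 of processed Cy3 over Cy5 (r = 1, slope 1). The authors' deposited log10 ratio, Cy5 over Cy3, was used only to settle direction. Per the series' design text, the authors' test was an unpaired t-test, adjusted by Benjamini-Hochberg, with a minimum of 1.6-fold.

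Here log2 ratios were taken from the processed signals, leaving out spots marked as outliers, and spots of a probe were averaged. Of 45018 spots, 43379 were not controls. A probe was tested if 1 of its channels was well above background on 3 or more arrays. The mean was tested against 0 with limma 3.58.1 (lmFit, eBayes; R 4.3.3), adjusted over all 26985 tested probes by Benjamini-Hochberg, threshold 0.05. Normexp (offset 50) with loess (span 0.3, 4 iterations) was an alternative; others are given in the closing section. The number of arrays limits the precision. Labels call the 4 samples biological replicates without describing the cultures. The script was tested on simulated data.

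Symbols came from the scanner annotation of replicate 4, and those of non-members were updated through a RefSeq table of GRCm38.p6, used for names alone (33497 of 41174 probes). Positions are mm9, per the file headers. Exon and UTR annotation was not used here. All probes of members are named, and from each list the 3 genes of smallest p and 6 binding partners (Tln1, Fermt2, Ilk, Ptk2, Fn1, Lama2) were to be named; Lgals1 and Cd81 of the membrane partners, not named in the text, had ratios of -0.55 and -0.44.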

Additional observations from a re-analysis of the deposited data

Results flagged for a closer look

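In 9 of 54 groups of 4 values, 1 array lay farther from the others than Dixon's 95% critical value allows. Chance flags about 1 in 20 groups, and the groups are not independent, since probes share arrays and genes. In 7 of the 9 the array was replicate 1 in the untreated channel. The log2 untreated signal there was 8.91 for Itga3 A_52_P301804 and 6.78 for Itga3 A_51_P515056. It was 9.74 for Itga5 and 12.7 for the brightest Itga6 probe. It was 12.9 and 11.8 for the Itga7 probes A_51_P181671 and A_52_P413034, all lower than on the other arrays. The Itgav clone probe A_52_P86872, at 9.09, was higher than on the others. For Itgb5 the untreated signal of replicate 2, at 16.5, stood above the rest. Of the 18 ratios 1 stood apart, the log2 ratio of 2.01 for Itga7 A_51_P181671 on replicate 1.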

How the results depend on the processing

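Among the ratios of single integrin probes under all alternatives, 257 kept their direction and their side of the threshold, 9 passed it (all under array weights) and 12 changed sign. Without replicate 1, Itga7 A_51_P181671 was -0.058 and A_52_P413034 -0.0020, and A_51_P181671 was -0.14 with normexp and loess without replicate 1, an alternative chosen after seeing the data. Itga3 A_51_P230405 was -0.072 with array weights, -0.054 without replicate 4 and -0.035 with normexp and loess without replicate 1. Itgb3 A_52_P553890 was 0.086 with replicates 2 and 3 averaged, 0.016 with slide as a random block, 0.080 without replicate 2 and 0.093 without replicate 3. Itga6 A_52_P81270 was 0.036 with normexp and median centring and 0.086 without replicate 4. Leaving out each replicate in turn gave -0.058 to 0.684 and -0.0020 to 0.944 for the Itga7 probes, -0.054 to 0.165 for that Itga3 probe, -0.237 to 0.093 for that Itgb3 probe and -0.169 to 0.086 for that Itga6 probe. The cause of these was not tested. Array weights called 9 integrin probes, 32 listed genes and 7941 probes in all. The 2 probes called in the whole table, Olfr1299 and Ces3b (named after their values were seen), became 0 with normexp and loess, with or without replicate 1, with normexp and median centring, with the strict background filter, with replicates 2 and 3 averaged, and without any 1 replicate (0 to 0). The methods' t-test called 3 probes after adjustment, 0 of them integrins. At an unadjusted p under 0.05 it found 2423 probes past 1.6-fold, 4 of them integrins. Dim probes are limited by signal over background. Each array holds both conditions, so the test of the ratio within an array is itself the paired analysis.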
